A study of Homo sapiens with 8 samples.

Results

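The 40 genes described here carry the NRF2 antioxidant response and the glutathione, thioredoxin and peroxide-removing enzymes of MDA-MB-231 cells. They were chosen by gene symbol with earlier results of these data known, so shares among them are descriptions only. All 40 were found among the 17649 genes of the expression table. The MDA-MB-231 line was derived from a human breast cancer and has no estrogen receptor. RNA-Seq compared 4 control cultures, given PBS in low-glucose medium, with 4 cultures given 1 µM CML for 48 hours in that same medium. CML (carboxymethyllysine, labelled NCML in the sample titles) is an advanced glycation end product, a modified lysine that accumulates when sugars react with proteins. The question was how exposure to such a product changes the transcriptome of breast cancer cells. All libraries come from a single cell line in culture, and no source says whether the 4 cultures of a group were grown on separate occasions, so the tests measure the spread between these cultures only.

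NRF2, encoded by NFE2L2, is a transcription factor that KEAP1 holds in the cytoplasm and sends to the proteasome. Oxidants and electrophiles modify cysteines of KEAP1, NRF2 then escapes degradation, enters the nucleus with a small MAF partner and binds antioxidant response elements in genes for glutathione synthesis, thioredoxin reduction and quinone reduction. Because this control acts on the NRF2 protein, the mRNA of its targets, such as NQO1, GCLM, SRXN1 and TXNRD1, is the usual readout of the pathway. Glutathione and thioredoxin are the main thiol reductants of the cell, and both draw their electrons from NADPH.

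The antioxidant response element is known by a core of letters, TGACNNNGC, in which N is any base. RefSeq promoter windows, from 250 bases before to 50 bases after the gene start on GRCh38.p14, were given for 31 of the 40 genes, and 4 of these windows (12.9%) held the core on either strand. The share was 13.6% over all 27305 promoters and 15.2% over promoters of expressed genes, so the core was about as frequent near these starts as elsewhere. A match describes letters only, since response elements can also lie farther from the start. The 5 matches are shown because they lie in 4 genes whose response is described below, and each stretch is written on the strand of its gene with the core, or its reverse complement, in capitals.
TXNRD1, chr12:104215673-104215695, plus strand, capitals beginning 99 bases before the start: cgggctaTGACTTCGCtgttgtc
TXNRD1, chr12:104215764-104215786, plus strand, core on the opposite strand, capitals beginning 8 bases before the start: tccttcgGCTCCGTCAgttccca
GCLM, chr1:93909449-93909471, minus strand, core on the opposite strand, capitals beginning 34 bases before the start: gatttctGCTTAGTCAttgtctt
GSTP1, chr11:67583739-67583761, plus strand, capitals beginning 66 bases before the start: ggcgccgTGACTCAGCactgggg
SLC3A2, chr11:62881655-62881677, plus strand, capitals beginning 37 bases before the start: gggtgggTGACTCAGCgtcctcc
GSTP1 and SLC3A2 shared the same 9 core letters. The SLC3A2 window stands at a start inside the annotated gene span (chromosome 11, 62856109 to 62888860), not at the outer end of the span.

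The libraries held an estimated 16161801 to 18954731 reads, and 1 read was worth 0.0535 to 0.0622 CPM (read counts scaled to library size). The line showed its defining genes in every library, with VIM at 4014 to 4243 CPM and AXL at 1122 to 1263 CPM. PGR was at 0 to 0.114 CPM, while ERBB2 stood at 44.1 to 54.4 CPM, and ESR1 was not among the rows analysed. Summed markers of leukocytes (0.912 to 2.27 CPM) and of endothelium (2.36 to 3.84 CPM) were low. Summed fibroblast markers were at 13.4 to 17.7 CPM, with COL1A1 at 9.40 to 13.3, PDGFRB at 3.07 to 4.88 and DCN at 0 to 0.0605 CPM.

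Control replicate 4 and CML replicate 4 stood apart from the other libraries, and they did so along the GC content of the transcripts. Among the 40 genes, 14 had transcripts with a GC content of 55% or more. Of these 14, 12 were lower in control replicate 4 than the mean of the other 3 controls, with a median difference of −9.12%, and all 14 were lower in CML replicate 4 than the mean of the other 3 CML libraries. GPX1 (62.4% GC) differed by −30.0% in control replicate 4 and by −13.1% in CML replicate 4. BLVRB (61.1% GC) differed by −20.6% and −19.6%, and GSTP1 (60.1% GC) by −16.4% and −21.8%. Of the 26 genes with a lower GC content, 4 were lower in control replicate 4, and SLC7A11 (35.4% GC) was 11.2% higher there and 6.86% higher in CML replicate 4. Across the 40 genes, Spearman's rho between GC content and the deviation of a library from its group was −0.83 for control replicate 4 and −0.70 for CML replicate 4, against 0.70 for control replicate 1, with transcripts sharing libraries and base composition, so no p is given. Over 12934 expressed genes the values for the libraries numbered 4 were −0.59 and −0.53. Each group held 1 such library, and the difference between CML and control had a rho of 0.14 with GC content among the 40 genes and of −0.092 over the 12934 genes. The part of this pattern in the values below was not tested, other than by leaving both libraries out and by regressing GC content and transcript length out of each library.

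**Figure D1:**
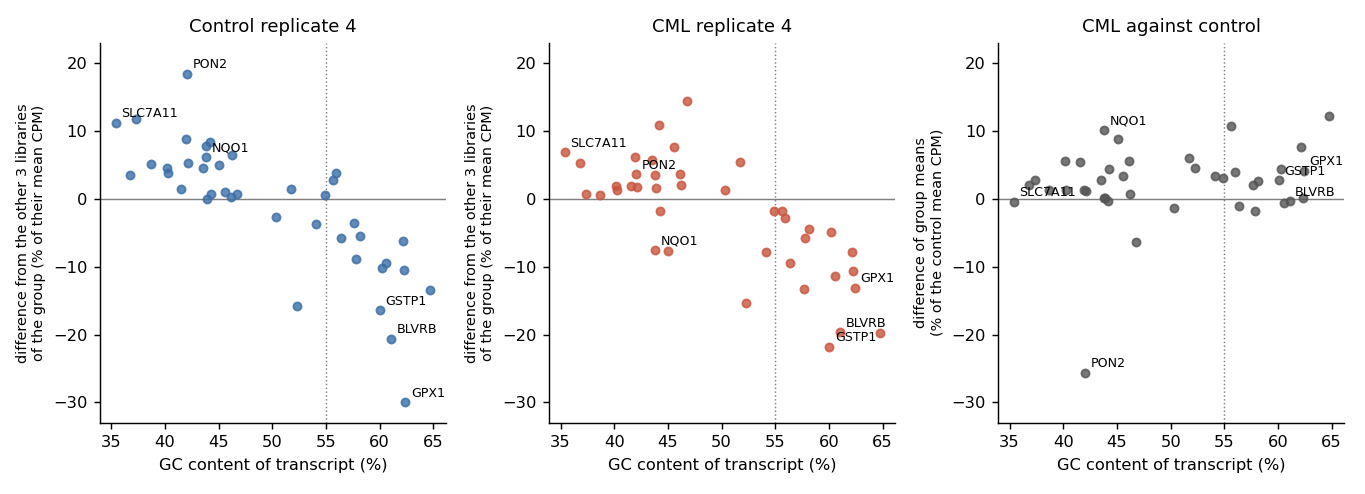
Difference of each of the 40 genes (points) against the GC content of its transcript, as percent of mean CPM, for control replicate 4 and CML replicate 4 against the other 3 libraries of their group and for the CML mean against the control mean (n = 4 each). Right of the dotted line at 55% GC, 12 of 14 genes were lower in control replicate 4 and all 14 in CML replicate 4, while the difference between the groups had a rho of 0.14 with GC content among these genes.

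All 40 genes were expressed at a mean of at least 1 CPM. Divided by transcript length, the level in control cells ranged from 1.72 ± 0.173 CPM per kb (SD, n = 4) for PON2 to 449 ± 25.3 CPM per kb for SLC3A2, the heavy chain of the cystine transporter. After SLC3A2 came PRDX1 (252 ± 8.52 CPM per kb), a cytosolic peroxiredoxin, and TXN (221 ± 9.96 CPM per kb), the cytosolic thioredoxin. PRDX2 and PRDX5, at 172 ± 10.1 and 172 ± 11.1 CPM per kb, did not differ beyond their spread, and neither did TXNRD1 and PRDX6, at 139 ± 5.80 and 138 ± 1.44 CPM per kb. All 6 peroxiredoxins were among the 15 highest of the 40. The light chain of the cystine transporter, SLC7A11, stood far below its heavy chain at 23.8 ± 1.41 CPM per kb, and both subunits of glutamate-cysteine ligase were low, GCLC at 12.7 ± 0.715 and GCLM at 5.02 ± 0.329 CPM per kb. The cytosolic glutaredoxin GLRX (112 ± 7.82 CPM per kb) and the membrane-protecting peroxidase GPX4 (113 ± 10.2 CPM per kb) lay within each other's spread. Catalase stood at 11.4 ± 0.353 CPM per kb, below SOD1 (76.3 ± 2.44) and SOD2 (57.4 ± 0.899). These levels depend on the transcript taken as the gene's length, which for SOD2 was 14167 bases long.

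**Figure D2:**
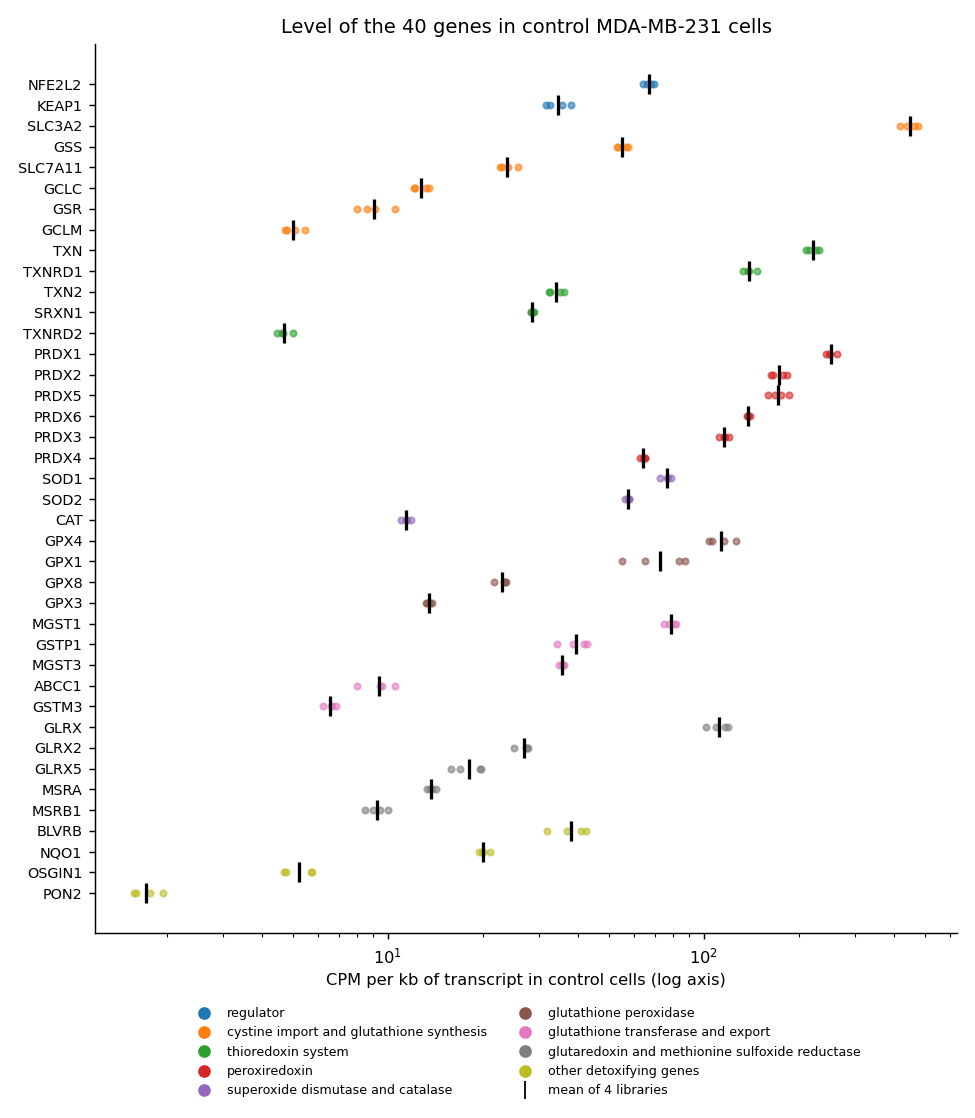
Level of each gene in the 4 control libraries (points) and their mean (black bar), in CPM per kb of transcript on a log axis, with genes grouped by role. Peroxiredoxins and thioredoxin lie near the top of the range, between 64.3 and 252 CPM per kb for the peroxiredoxins, and PON2 is lowest at 1.72 CPM per kb.

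With CML, mRNA of this antioxidant programme stayed close to its control level. Of the 40 genes, 36 had group means within 10% of each other, and for 34 the 95% interval of the difference lay inside 20% in both directions (intervals are for the ratio of CPM + 1). One gene, PON2, fell at the FDR of 0.3 used for this experiment, and no gene passed 0.05. That is 2.5% of the 40 genes, and 0.895% of all 17649 genes (158 genes, 119 higher and 39 lower) passed the FDR of 0.3, with 0 at 0.05. The next lowest adjusted p among the 40 was 0.381 (limma, Benjamini-Hochberg over all genes). Without control replicate 4, 5 of the 40 genes passed (PON2, lower, and GPX3, NQO1, PRDX3 and SOD2, higher) beside 690 genes in all. Without any 1 of the other libraries 0 of the 40 passed, beside 20 to 105 genes in all. The genes summed to between 5016 and 5126 CPM in control libraries and between 5108 and 5190 CPM in CML libraries, which overlapped.

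By direction, more of the genes were higher than lower with CML. Of the 40 genes, 31 (77.5%) had a log2 fold change above 0, against 53.5% of all genes and 58.8% of the 13047 genes that averaged 1 CPM or more. The median log2 fold change was 0.036, against 0.0066 and 0.015. With each library centred on its median, 24 of the 40 genes (60%) were higher and the median was 0.016. Over all genes 43.1% were higher in that setting, with a median of −0.013. After quantile normalization 25 of the 40 (62.5%) were higher with a median of 0.020, against 47.9% of all genes with a median of 0. An unadjusted p under 0.05 was reached by 9 of the 40 genes (22.5%), 8 higher and 1 lower, against 7.66% of all genes and 8.29% of the genes with at least 1 CPM (5.65% counting higher values only). This count was 3 with libraries centred on their median, 5 when genes under 1 CPM were removed before the fit, and 6 without both libraries numbered 4. The share over all genes at that p was not computed in these settings, so the counts have no background to be read against. The groups did not overlap for 4 of the 40 genes (10%), PON2, GPX3, SOD2 and PRDX3, against 4.34% of the genes with at least 1 CPM.

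**Figure D3:**
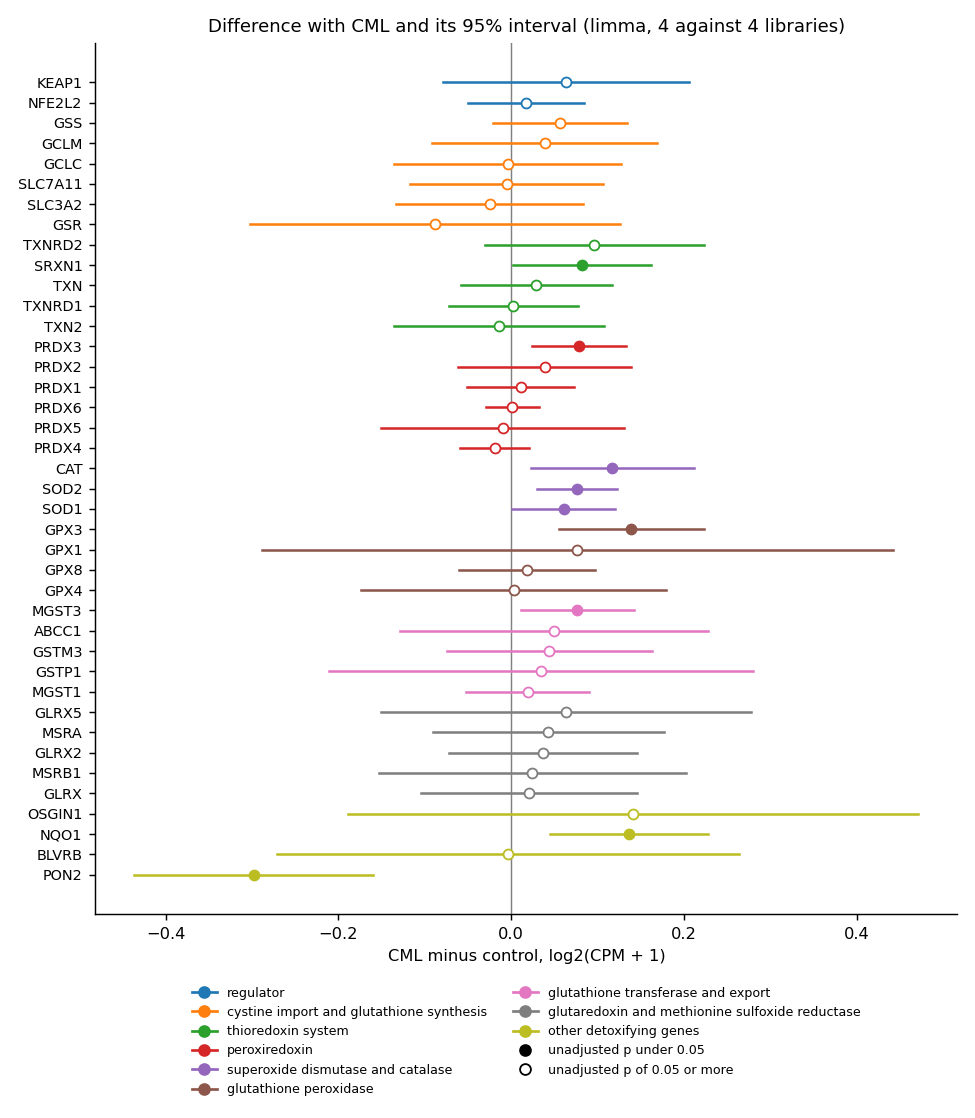
Difference between CML and control cells for each gene on the log2(CPM + 1) scale with its 95% interval (limma, 4 against 4 libraries), grouped by role. Filled points mark the 9 genes with an unadjusted p under 0.05, of which PON2 lies lowest at −0.30 and GPX3 highest at 0.14, while the widest intervals belong to GC-rich transcripts such as GPX1 and OSGIN1.

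The regulators did not pass the test. NFE2L2 (chromosome 2, 177230303 to 177264727, minus strand, GRCh38.p14) stood at 162, 157, 167 and 171 CPM in control replicates 1 to 4 and at 166, 161, 169 and 168 CPM in CML replicates 1 to 4. The CML values lay inside the control range, and the log2 fold change was 0.017 ± 0.028 (SE, adjusted p = 0.978), with an interval of −3.43% to 6.004%. Exons of NFE2L2 overlap those of HNRNPA3 on the opposite strand over 23.4% of their bases, and HNRNPA3 stood at 335 CPM. The sources used here do not state the strandedness of these libraries, so it is not known whether reads of the 2 genes were told apart there. The estimated reads of NFE2L2 were whole numbers in 5 of 8 libraries, which does not settle this. KEAP1, the adaptor that presents NRF2 to its ubiquitin ligase, stood at 97.1, 91.0, 83.9 and 81.4 CPM in control cells and at 89.96, 97.5, 92.5 and 88.8 CPM with CML. The groups overlapped, and the log2 fold change was 0.063 ± 0.060 (adjusted p = 0.897).

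Cystine import and glutathione synthesis showed no shift in a common direction, with 2 of 6 genes higher, 4 lower, none passing and a median log2 fold change of −0.0048. SLC7A11, the cystine carrier of system xc-, stood at 218, 221, 231 and 248 CPM in control cells and at 225, 229.7, 219 and 240.0 CPM with CML. The highest value of each group was that of replicate 4, and the log2 fold change was −0.0053 ± 0.047 with an interval of −7.80% to 7.66%. SLC3A2 differed by a log2 fold change of −0.025 ± 0.046. GCLC, the catalytic subunit of the first and rate-limiting enzyme of glutathione synthesis, stood at 46.0, 45.9, 49.8 and 51.2 CPM in control cells and at 46.9, 48.6, 44.9 and 52.0 CPM with CML. The groups overlapped throughout, with a log2 fold change of −0.0042 ± 0.055. GCLM, the modifier subunit of that enzyme, stood at 23.1, 23.5, 24.9 and 26.6 CPM and at 23.7, 26.8, 24.9 and 25.3 CPM, a log2 fold change of 0.039 ± 0.055 with an interval of −6.12% to 12.4%. In control cells GSS, which completes glutathione, was 105 ± 4.29 CPM (SD, n = 4, as for all such values below), and with CML 109 ± 2.82 CPM. GSR, which reduces glutathione disulfide, was 27.5 ± 3.25 and 25.7 ± 1.99 CPM, and the highest control value of 31.9 CPM came from replicate 1.

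In the thioredoxin system 4 of 5 genes were higher and none passed. TXNRD1 (chromosome 12, 104215779 to 104350307, plus strand), the cytosolic selenoenzyme that reduces thioredoxin, stood at 515, 531, 535 and 568 CPM in control cells and at 538, 531, 531 and 552 CPM with CML. All CML values lay inside the control range, and the log2 fold change was 0.0027 ± 0.031 with an interval of −4.85% to 5.49%, and its promoter held the response element core at 2 places. SRXN1 (chromosome 20, 646615 to 653200, minus strand), the sulfiredoxin that repairs overoxidized peroxiredoxins, stood at 71.6, 71.8, 73.1 and 73.2 CPM in control cells and at 76.3, 79.1, 71.8 and 79.8 CPM with CML. In 3 of 4 CML libraries it lay above every control, while CML replicate 3 lay among the controls, and the log2 fold change of 0.082 ± 0.034 did not pass (adjusted p = 0.633). Nearly all of its exon bases (90.7%) are shared with another annotated gene on its strand that was not among the rows analysed. TXN was 163 ± 7.34 CPM in control cells and 166 ± 5.19 CPM with CML, its mitochondrial counterpart TXN2 was 45.5 ± 2.40 and 45.0 ± 2.52 CPM, and the mitochondrial reductase TXNRD2 was 9.09 ± 0.433 and 9.79 ± 0.525 CPM.

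Of the 6 peroxiredoxins, which reduce hydrogen peroxide with electrons from thioredoxin or glutathione, 4 were higher and 2 lower, and none passed. PRDX3 (chromosome 10, 119167720 to 119178812, minus strand), the mitochondrial member, stood at 182, 174, 179 and 186 CPM in control cells and at 188, 188, 192 and 193 CPM with CML. Every CML library lay above every control, and the log2 fold change of 0.078 ± 0.023 did not pass (adjusted p = 0.456). Without control replicate 4 its adjusted p was 0.221, and over 20 alternative settings it ranged from 0.221 to 0.729. PRDX6 was the most tightly measured of the 40 genes, with 233 ± 2.43 CPM in control cells and 234 ± 2.87 CPM with CML, a log2 fold change of 0.0013 ± 0.013 and an interval of −2.03% to 2.26%. PRDX1 (238 ± 8.05 and 239.8 ± 4.11 CPM) and PRDX2 (159.5 ± 9.36 and 164 ± 3.68 CPM), both cytosolic, had intervals within −4.17% and 10.1%. PRDX4, of the endoplasmic reticulum, was 61.5 ± 0.944 and 60.6 ± 0.909 CPM, and PRDX5 was 148 ± 9.51 and 147 ± 8.83 CPM.

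Superoxide dismutases and catalase formed the single role in which every gene had an unadjusted p under 0.05, and none of the 3 passed after adjustment. Such a p was reached by 8.29% of the genes with at least 1 CPM. Among the 40 genes the count fell from 9 to 3 with libraries centred on their median, a setting in which the share over all genes was not computed. SOD2 (chromosome 6, 159669069 to 159762281, minus strand), the manganese enzyme of mitochondria, stood at 814, 823, 796 and 823 CPM in control cells and at 852, 871, 839 and 869.8 CPM with CML. The groups did not overlap, the means differed by 5.42%, and the log2 fold change was 0.076 ± 0.019 (adjusted p = 0.381). SOD2 passed 0.3 in 4 of 20 alternative settings, among them the removal of GC content and transcript length (log2 fold change 0.065, adjusted p = 0.281), and its adjusted p ranged from 0.150 to 0.729. CAT, the peroxisomal catalase, stood at 25.2, 26.3, 26.1 and 27.1 CPM in control cells and at 28.9, 30.1, 28.1 and 26.8 CPM with CML. CML replicates 1 to 3 lay above every control, and CML replicate 4 lay below the highest control, with a log2 fold change of 0.12 ± 0.040 (adjusted p = 0.531). SOD1, the cytosolic copper-zinc enzyme, stood at 69.0, 70.4, 65.3 and 68.7 CPM in control cells and at 70.3, 72.1, 72.5 and 70.3 CPM with CML. The groups overlapped at 70.4 CPM, and the log2 fold change was 0.061 ± 0.025 (adjusted p = 0.643).

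**Figure D4:**
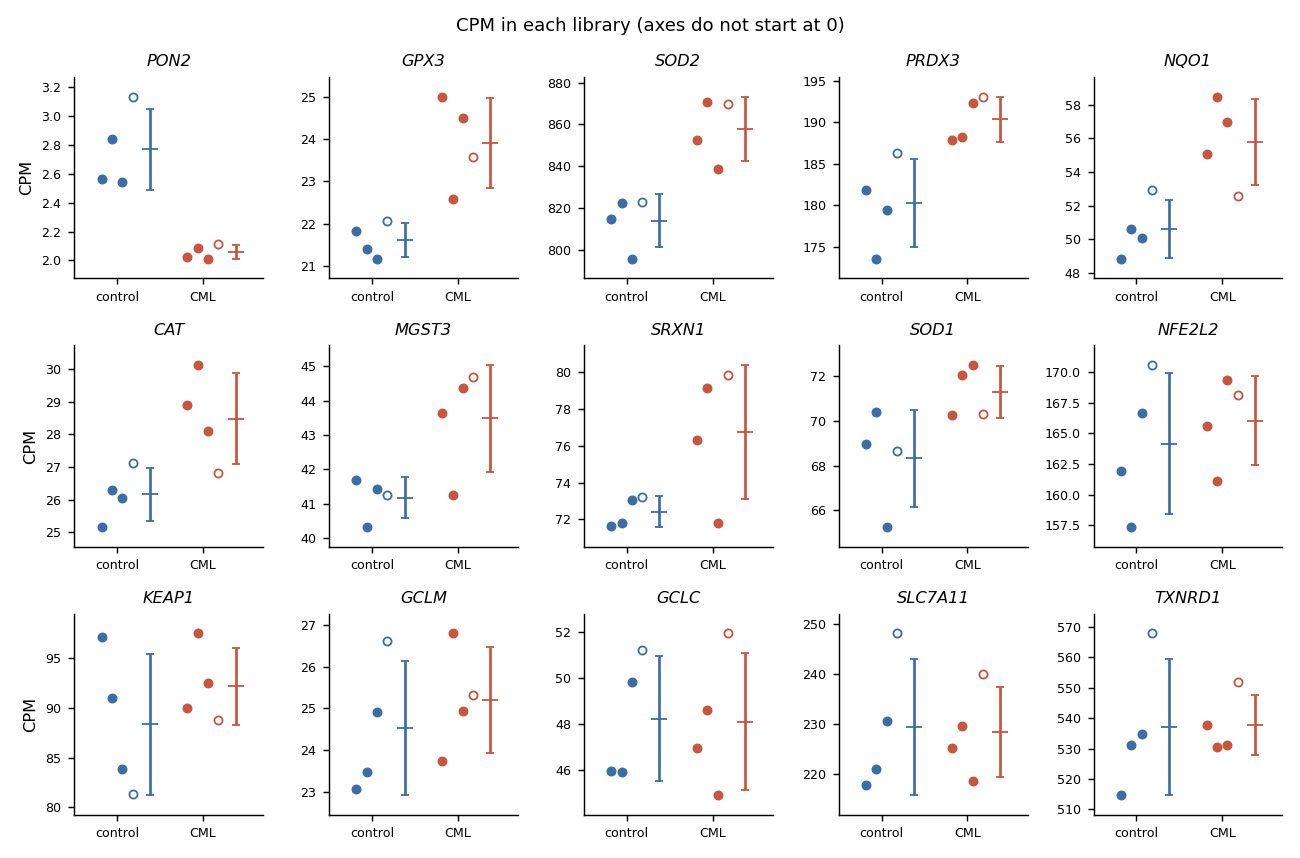
CPM of 15 genes in each control (blue) and CML (red) library, replicates 1 to 4 from left to right with replicate 4 as an open circle, and the mean with SD (n = 4) at the right of each group. The groups are apart for PON2, GPX3, SOD2 and PRDX3, and overlap for the other 11 genes, including NFE2L2, GCLM, GCLC, SLC7A11 and TXNRD1.

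All 4 glutathione peroxidases had a log2 fold change above 0, and none passed. GPX3 (chromosome 5, 151020591 to 151028988, plus strand), the secreted selenoenzyme, stood at 21.8, 21.4, 21.2 and 22.1 CPM in control cells and at 25.0, 22.6, 24.5 and 23.6 CPM with CML. Every CML library was above every control, and the means differed by 10.7%, but the log2 fold change of 0.14 ± 0.036 did not pass (adjusted p = 0.381, range over 20 alternatives 0.282 to 0.657). GPX4, which reduces lipid peroxides in membranes, was 96.2 ± 8.70 CPM in control cells and 96.3 ± 6.55 CPM with CML, with an interval of −11.3% to 13.2%. GPX1, the abundant cytosolic enzyme, ranged from 49.5 to 78.5 CPM within the controls alone, and its interval of −18.1% to 35.9% leaves room for a difference in either direction that is larger than for most of the 40 genes. Its exons overlap those of another annotated gene on the same strand over 39.9% of their bases. GPX8, of the endoplasmic reticulum, was 85.9 ± 3.44 and 87.0 ± 2.34 CPM.

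Glutathione transferases and the exporter of glutathione conjugates were likewise all higher, 5 of 5, with none passing. MGST3, a microsomal enzyme, stood at 41.7, 40.3, 41.4 and 41.3 CPM in control cells and at 43.6, 41.3, 44.4 and 44.7 CPM with CML. In 3 of 4 CML libraries it was above every control, and the log2 fold change was 0.077 ± 0.028 (adjusted p = 0.559). GSTP1, the cytosolic pi class transferase whose promoter held the response element core, was 29.2 ± 2.82 CPM in control cells and 29.9 ± 3.51 CPM with CML, and both lowest values came from the libraries numbered 4. GSTM3 (27.1 ± 1.08 and 28.0 ± 1.72 CPM), MGST1 (72.9 ± 2.83 and 73.8 ± 1.42 CPM) and the multidrug exporter ABCC1 (61.1 ± 6.72 and 63.0 ± 0.905 CPM) had log2 fold changes of 0.044, 0.019 and 0.050.

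The 5 glutaredoxins and methionine sulfoxide reductases, which undo glutathionylation and methionine oxidation of proteins, had log2 fold changes between 0.021 (GLRX) and 0.063 (GLRX5), and none passed. GLRX was 104 ± 7.29 CPM in control cells and 105 ± 3.68 CPM with CML. The mitochondrial GLRX2 was 18.4 ± 0.844 and 18.9 ± 0.852 CPM, and GLRX5, which serves iron-sulfur cluster assembly, was 19.9 ± 2.19 and 20.8 ± 1.68 CPM. MSRA was 20.8 ± 0.553 and 21.5 ± 1.77 CPM, and MSRB1, a selenoprotein, was 11.8 ± 0.828 and 12.01 ± 1.07 CPM.

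Among the remaining detoxifying genes, PON2 and NQO1 showed differences in opposite directions. PON2 (chromosome 7, 95404862 to 95435028, minus strand), a membrane-bound paraoxonase known to limit superoxide formation in mitochondria, stood at 2.56, 2.84, 2.54 and 3.13 CPM in control cells and at 2.03, 2.09, 2.01 and 2.12 CPM with CML. All 4 CML libraries lay below all 4 controls, the mean fell by 25.6%, and the log2 fold change was −0.30 ± 0.058 (adjusted p = 0.242). At this depth the values rest on 33 to 55 estimated reads per library, and PON2 had the lowest level of the 40 genes. Its direction held in all 20 alternative settings, with log2 fold changes from −0.42 to −0.25, but it passed 0.3 in 5 of them, and the adjusted p ranged from 0.168 to 0.593. It passed when control replicate 4 was left out and did not when any 1 of the other 7 libraries was left out.

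NQO1 (chromosome 16, 69709401 to 69726560, minus strand), the quinone reductase used most widely as a readout of NRF2, stood at 48.8, 50.6, 50.1 and 52.9 CPM in control cells and at 55.1, 58.5, 57.0 and 52.6 CPM with CML. In 3 of 4 CML libraries it was above every control, while CML replicate 4 was just below control replicate 4, and the log2 fold change was 0.14 ± 0.039 (adjusted p = 0.423). The means differed by 10.2%, with an interval of 3.21% to 17.1%. NQO1 passed 0.3 in 4 of 20 alternative settings, among them the removal of GC content and transcript length (log2 fold change 0.12, adjusted p = 0.198) and leaving out both libraries numbered 4 (0.19, adjusted p = 0.223), and its adjusted p ranged from 0.196 to 0.667. BLVRB, the NADPH-dependent biliverdin reductase, was 30.4 ± 3.78 and 30.3 ± 3.42 CPM, and OSGIN1, an NRF2-responsive growth inhibitor, was 10.1 ± 1.12 and 11.3 ± 2.16 CPM, with an interval of −12.3% to 38.7%.

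Across the core readouts of NRF2 the log2 fold change was 0.14 for NQO1, 0.082 for SRXN1, 0.039 for GCLM, 0.0027 for TXNRD1 and −0.0053 for SLC7A11, with none passing the test. The 4 genes whose promoter window held the response element core, TXNRD1, GCLM, GSTP1 and SLC3A2, had log2 fold changes between −0.025 and 0.039, and none had an unadjusted p under 0.05.

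The wider pathway, 133 further genes in 7 lists, gave no gene that passed the FDR of 0.3. Of the 120 in the table, 114 had a mean of at least 1 CPM, with 58 of them higher in CML cells and a median log2 fold change of 0.0012. An unadjusted p under 0.05 was reached by 4 genes that were higher and 3 that were lower, and the lowest adjusted p was 0.381. For comparison, 7.66% of all genes had an unadjusted p under 0.05, and 58.8% of all genes with at least 1 CPM were higher. Among 27 expressed NRF2 targets outside the 40 genes, 13 were higher, and all 3 with an unadjusted p under 0.05 were lower. The ferritin heavy chain FTH1, an iron store, stood at 1635, 1645, 1610 and 1647 CPM in control cells and at 1568, 1533, 1558 and 1563 CPM with CML. The groups did not overlap, and the log2 fold change was −0.071 ± 0.019 (adjusted p = 0.397), while the light chain FTL had −0.055 ± 0.051. FECH, which inserts iron into heme, was 30.2 ± 0.850 CPM in control cells and 28.1 ± 1.22 CPM with CML. HMOX1, the heme oxygenase induced by many oxidants, stood at 15.7, 14.2, 13.8 and 14.9 CPM in control cells and at 14.1, 13.4, 13.8 and 13.3 CPM with CML. Its log2 fold change of −0.096 ± 0.045 did not pass (adjusted p = 0.706), and 3 of 4 CML libraries lay below every control.

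Among 19 partners and controllers of NRF2, 11 were higher. NFE2L3, a related CNC factor, was 138 ± 6.10 CPM in control cells and 146 ± 0.999 CPM with CML (log2 fold change 0.085 ± 0.030, adjusted p = 0.553), and the small MAF protein MAFF was 131 ± 6.64 and 137 ± 4.41 CPM. The repressor BACH1 (log2 fold change 0.053), the ligase scaffold CUL3 (0.036), the autophagy receptor SQSTM1 (0.0052) and the related factor NFE2L1 (−0.017) did not pass. Among 18 other redoxins, the thioredoxin-related transmembrane protein TMX2 was 148 ± 0.845 CPM in control cells and 153 ± 1.83 CPM with CML, without overlap, and its log2 fold change of 0.045 ± 0.011 did not pass (adjusted p = 0.381). SESN2 was 112 ± 4.53 and 118 ± 5.23 CPM. TXNIP, which binds and inhibits thioredoxin and responds to glucose, was 47.3 ± 1.15 and 47.1 ± 0.661 CPM, a log2 fold change of −0.0066 ± 0.021.

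No gene of the remaining 4 lists passed. Of 21 expressed glutathione enzymes outside the 40 genes, 10 were higher, with GSTCD at 10.1 ± 0.957 and 11.2 ± 0.342 CPM and GSTA4 at 2.83 ± 0.239 and 2.53 ± 0.281 CPM. Of 12 other antioxidant genes, 7 were higher, with OXR1 at 61.2 ± 2.95 and 66.0 ± 2.79 CPM and PON3, a paralog and chromosomal neighbour of PON2, at 2.04 ± 0.362 and 1.76 ± 0.248 CPM. Of 7 expressed NADPH oxidase genes, 2 were higher, and DUOX2, which averaged under 1 CPM (0.690 ± 0.206 and 0.967 ± 0.143 CPM), did not reach an unadjusted p under 0.05. Of 10 genes for selenoprotein synthesis, on which the thioredoxin reductases and some glutathione peroxidases depend, 5 were higher, with SEPHS1 at 46.4 ± 2.82 and 50.8 ± 2.50 CPM and SEPHS2 at 108 ± 2.34 and 105 ± 3.35 CPM.

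**Figure D5:**
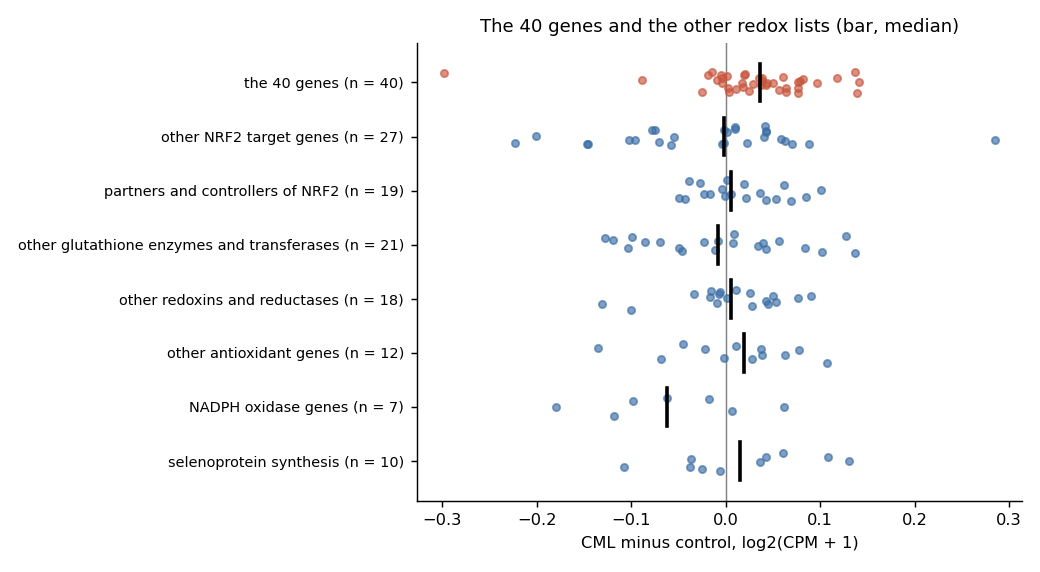
Difference between CML and control cells on the log2(CPM + 1) scale for the 40 genes and for the genes of 7 other redox lists with a mean of at least 1 CPM (points), with the median of each list as a bar. The medians of the other lists lie between −0.062 and 0.019, that of the 40 genes at 0.036, and no point of the other lists passed the FDR of 0.3.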

How the data were processed

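RNA-Seq was compared between 4 control and 4 CML cultures, grouped by the treatment label and sample titles. The authors deposited CPM values (read counts scaled to library size), 1 column per library, and the submitters' processing notes name hg38 and edgeR. The aligner and counter of these libraries are not given in the sources used here. The values were multiples of 1 read for 84.5% to 85.6% of entries above 0 (tolerance 0.01 read), too few for a count test.

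Rows that share a symbol (32 symbols) were averaged, log2(CPM + 1) was taken, and CML was set against control in limma 3.58.1 (R 4.3.3) using a variance trend, no covariates and Benjamini-Hochberg adjustment over 17649 genes, at an FDR of 0.3. A fold change on this scale understates that of low genes. The fit was tested on simulated data. Positions are from RefSeq (GRCh38.p14), matched by symbol for all 40 genes, and transcript lengths, GC content and exon overlaps from GENCODE on GRCh37.

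The genes and lists were chosen with earlier results of these data known, so no list was tested as a set. Any of the 40 genes may be named, with every library shown for genes with an unadjusted p under 0.05 or without overlap and for the pathway core. From the other lists, HMOX1, FTH1, FTL, NFE2L1, BACH1, SQSTM1, CUL3, TXNIP, genes passing 0.3 and the 2 smallest p of each list are named, and some genes that the rule selects are not reported here. Alternatives were other pseudocounts, a CPM minimum, rows kept separate, other scalings, other variance models, a replicate block, removal of GC content and length, and each library left out in turn. Leaving out both libraries numbered 4 was added after the data were seen. Pairs of libraries within a group differed by more than counting noise.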

Additional observations from a re-analysis of the deposited data

Results flagged for a closer look

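A library far from the other 3 of its group, by Dixon's criterion, was found in 3 of 80 groups tested (40 genes, 2 conditions), where chance gives about 4. PRDX2 was at 158.2 CPM in CML replicate 4, against 165 to 166 CPM in the other CML libraries. GPX8 was at 83.54 CPM in CML replicate 1, against 87.9 to 88.4 CPM in the others. MSRA was at 24.07 CPM in CML replicate 3, against 20.2 to 20.8 CPM in the others. None of the 3 genes passed the test between the groups.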

How the results depend on the processing

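Between 0 and 5 of the 40 genes passed the FDR of 0.3 under the settings tried, beside 20 to 955 genes in all, and which genes passed changed. Over all genes the count of 158 was 73 with libraries centred on their median, 84 with unmoderated variances, 878 with GC content and transcript length removed (fewer genes tested) and 321 with both libraries numbered 4 left out, a setting added after the data were seen. Of the 40 genes, 0 passed with a pseudocount of 0.1 or 0.01, with genes averaging under 1 CPM removed, with centring, with quantile normalization and with unmoderated variances. In that order, 136, 124, 141, 73, 144 and 84 genes passed in all, of 17649 tested (13047 with the CPM minimum). With GC content and transcript length removed 3 passed (NQO1, PON2 and SOD2), and without both libraries numbered 4, 2 passed (NQO1 and PON2). Leaving out 1 library gave 20 genes in all without CML replicate 2 and 690 without control replicate 4, with 0 to 5 of the 40 passing, and the 5 without control replicate 4 were GPX3, NQO1, PON2, PRDX3 and SOD2. The cause was not tested.

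The median log2 fold change of the 40 genes was 0.016 with centring (−0.013 over all genes) and 0.020 with quantile normalization (0 over all genes). With 1 library left out it ranged from 0.026 (without CML replicate 3) to 0.049 (without CML replicate 4). Same-numbered libraries correlated at 0.20, −0.030, −0.065 and 0.33 in their deviations from the group means, and 4 of 8 libraries correlated best with their own number, so the numbers were not taken as pairs. With the replicate block, 189 genes passed in all and 1 of the 40, SOD2 in place of PON2, and with the replicate block and GC content and transcript length removed, 955 and 2 (NQO1 and SOD2).

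Genes that did not pass changed sign as follows, in log2 fold change. Centred libraries gave NFE2L2 −0.0028, TXNRD1 −0.017, PRDX1 −0.0085, PRDX6 −0.018, GPX4 −0.017, GPX8 −0.0011 and MGST1 −0.00066. Quantile normalization gave NFE2L2 −0.0079, TXNRD1 −0.032, PRDX1 −0.021, PRDX6 −0.028, GPX4 −0.015 and GLRX −0.0022. With GC content and transcript length removed, with or without the block, the values were NFE2L2 −0.0019, TXNRD1 −0.0095, PRDX6 −0.016, GPX8 −0.0019 and MGST1 −0.0039. Without both libraries numbered 4 they were SLC7A11 0.0090, TXN2 7.4e-05 and PRDX6 −0.0047. Leaving out 1 library at a time gave ranges across 0 for 19 genes, NFE2L2 −0.0031 to 0.035, SLC7A11 −0.030 to 0.033, SLC3A2 −0.058 to 0.0045, GCLC −0.041 to 0.028, TXN2 −0.044 to 0.021, TXNRD1 −0.018 to 0.030, PRDX1 −0.0036 to 0.034, PRDX5 −0.045 to 0.034, PRDX6 −0.0046 to 0.0084, GPX1 −0.047 to 0.17, GPX4 −0.036 to 0.058, GPX8 −0.010 to 0.038, GSTP1 −0.027 to 0.12, MGST1 −0.0039 to 0.037, ABCC1 −0.023 to 0.11, GLRX −0.023 to 0.051, MSRA −0.011 to 0.070, MSRB1 −0.020 to 0.072 and BLVRB −0.084 to 0.072. The other 21 genes kept 1 direction in all 20 alternatives. Depth limits PON2 most, since it rests on 33 to 55 estimated reads per library.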
